A study of Mus musculus with 30 samples.

Results

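The best supported 1% of therapeutic transposon insertion sites were described in livers of Fah knockout mice treated with a piggyBac (PB) or a Sleeping Beauty (SB) vector. In each liver whose table listed at least 10000 sites, a site was chosen by its support, the whole number deposited beside it, when that number was at or above the 99th percentile of that liver. This gave 12548 of 1232298 sites in 17 PB livers and 9755 of 944543 sites in 12 SB livers, together 22303 of 2181734 sites in the series. SB liver 13 lay under the minimum of sites and was left out. All animals carried the Fah knockout, a model of tyrosinemia type I (TT1), and both groups received in vivo gene therapy that differed in the vector system. Strain, age, dose, sex and length of follow-up are not given in the sources used here, and no untreated liver was analysed here. The DNA came from lysates of whole livers, so insertions in hepatocytes and in other liver cells were read together. Insertion sites were read by streptavidin-based enrichment sequencing (SBE-seq), in which fragments next to a transposon end are amplified by nested PCR and pulled down through a biotinylated primer.

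FAH is the last enzyme of tyrosine breakdown, and hepatocytes without it are poisoned by metabolites of tyrosine. Hepatocytes that gain a working copy can outgrow their neighbours and repopulate the liver, which makes the Fah knockout mouse a classic model of selection in the liver. PB transposase inserts at TTAA and SB transposase at TA, and PB is known to favour open and transcribed chromatin, whereas SB is known to insert closer to evenly along the genome. The comparisons below ask whether the sites with the most support gather in windows of the genome, come back in other livers or favour a strand. They do not say what gave a site its support.

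PB livers 13 to 17 held fewer sites (16364 to 40598) than PB livers 1 to 12 (66528 to 124238), and the labels do not say how they differ. Livers 1 to 12 alone gave every PB measure below the same direction and the same side of the threshold. SB livers held 34929 to 120220 sites. Summed support ran from 1962673 to 8288751 in PB livers and from 2887163 to 5239572 in SB livers.

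The support of the chosen sites is described first, with no test, because it chose them. The lowest support that was taken ran from 45 in PB liver 7 to 354 in PB liver 16 (median 173), and from 86 in SB liver 11 to 240 in SB liver 5 (median 141.5). In every liver the highest support left out was 1 less, so the chosen sites do not stand apart from the sites below them. The threshold lay 2.71 ± 0.27 times above the median site in PB livers (SD, n = 17) and 2.85 ± 0.33 times in SB livers (SD, n = 12). The chosen sites held 3.35% ± 0.30 of a liver's summed support in PB and 3.18% ± 0.32 in SB. No liver therefore had a small set of sites that took most of the support.

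**Figure D1:**
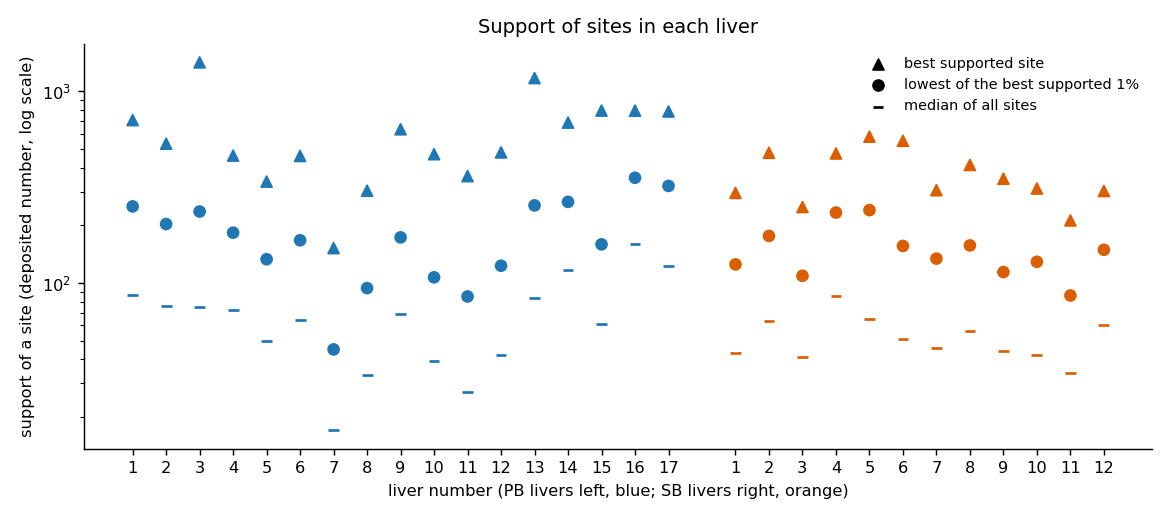
Support of sites (deposited number, log scale) in each of 17 PB and 12 SB livers: the best supported site (triangle), the lowest of the best supported 1% (circle) and the median site (dash). The circle is 2.21 to 3.69 times the dash, while the single best site reaches 1417 in PB liver 3 and 580 in SB liver 5.

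Of the 3 PB sites with the highest support over their liver's median, 1 was listed in another liver, and of the 3 SB sites 0 were. As a class, 66.5% of the top 0.1% of PB sites and 3.85% of those of SB were listed in another liver. A count of 3 sites is too small to compare with its class. The site with the highest support over its liver's median lay in PB liver 3 on chromosome 14 from 22618364 to 22618367 on the plus strand (GRCm39, the build of all positions here), with a support of 1417 against a median of 75, or 18.9 times the median. No other PB liver held this position. The next lay in the same liver on chromosome 9 from 35077900 to 35077903 (minus strand, support 1120), and 2 other livers held its position with a support of 49 and 92. The third lay in PB liver 13 on chromosome 1 from 75772520 to 75772523 (plus strand, support 1173, 14.1 times the median) and was in no other PB liver. In SB the first was on chromosome 1 from 188933203 to 188933204 (SB liver 6, support 552, 10.8 times the median). The other two, on chromosome 17 from 5680072 to 5680073 (support 580) and on chromosome 4 from 59634697 to 59634698 (support 554), were both in SB liver 5. None of these 3 SB positions was in another SB liver. The gene table at hand describes another build (GRCm38.p6), so no position is assigned to a gene, exon or promoter.

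As a group, the best supported PB sites came back in other livers far more often than the other sites of the same liver. A site counted as recurrent when its exact position and strand was listed in another liver of its vector system, at any support. The recurrent share of best supported PB sites ran from 39.0% in liver 16 to 71.2% in liver 7 (median 53.5%), and that of other PB sites from 27.1% to 31.4% (median 29.0%). The 2 ranges do not overlap, and the best supported share was the higher in 17 of 17 livers. The means were 53.6% ± 9.3 of best supported sites and 29.0% ± 1.5 of other sites (SD, n = 17), a difference of 24.5 percentage points (exact sign-flip permutation test over livers, two-sided, p = 1.53e-05, the smallest that 17 livers allow, adjusted p = 7.63e-05 over 20 tests). Each shared position counts in every liver that holds it, so the livers of a group are not independent for recurrence, and these p-values are too small.

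Single livers differed in how large the gap was. In PB liver 7, 925 of 1300 best supported sites were recurrent (95% Wilson interval 68.6% to 73.6%), against 27.5% of its other sites. In PB liver 16, with the fewest sites, 64 of 164 were recurrent (31.9% to 46.7%), against 31.2% of its other sites. Best supported sites of livers 13 to 17 had recurrent shares of 39.0% to 50.4%, and those of livers 1 to 12 had 46.1% to 71.2%. The number of sites per liver moves with this share, and its part was not tested. These intervals cover counting error only.

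PB recurrence on the opposite strand showed the same order. An insertion at the same position in the other orientation was listed in another liver for 52.1% ± 9.8 of best supported PB sites and 28.4% ± 1.3 of other PB sites (SD, n = 17; higher in 17 of 17 livers, exact sign-flip permutation test, adjusted p = 7.63e-05). Of the best supported PB sites, 19.5% were listed in at least 5 other livers, against 2.94% of the other sites, and 2.71% against 0.138% in at least 10.

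In SB recurrence was rare in best supported and other sites, and the gap between them did not pass the test. The recurrent share of best supported SB sites ran from 0.703% in liver 12 to 3.58% in liver 2 (median 2.47%), and that of other SB sites from 1.93% to 2.36% (median 2.09%). The ranges overlap, and best supported sites were higher in 8 of 12 livers. The means were 2.37% ± 0.80 and 2.10% ± 0.13 (SD, n = 12), a difference of 0.271 percentage points (exact sign-flip permutation test, adjusted p = 0.3). On the opposite strand the shares were 1.96% ± 0.40 and 1.86% ± 0.10 (exact sign-flip permutation test, adjusted p = 0.48). The gap between best supported and other sites was 24.3 percentage points larger in PB than in SB (permutation test with 100000 resamples, p = 1e-05, the smallest they can give, adjusted p = 3.33e-05 over 10 tests). A gap in percentage points depends on the share of other sites, which was 29.0% in PB and 2.10% in SB. As a ratio of means, best supported over other, recurrence was 1.84 in PB and 1.13 in SB, which was not tested. At the 95th percentile the SB gap was 0.159 percentage points and passed (exact sign-flip permutation test, adjusted p = 0.011).

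**Figure D2:**
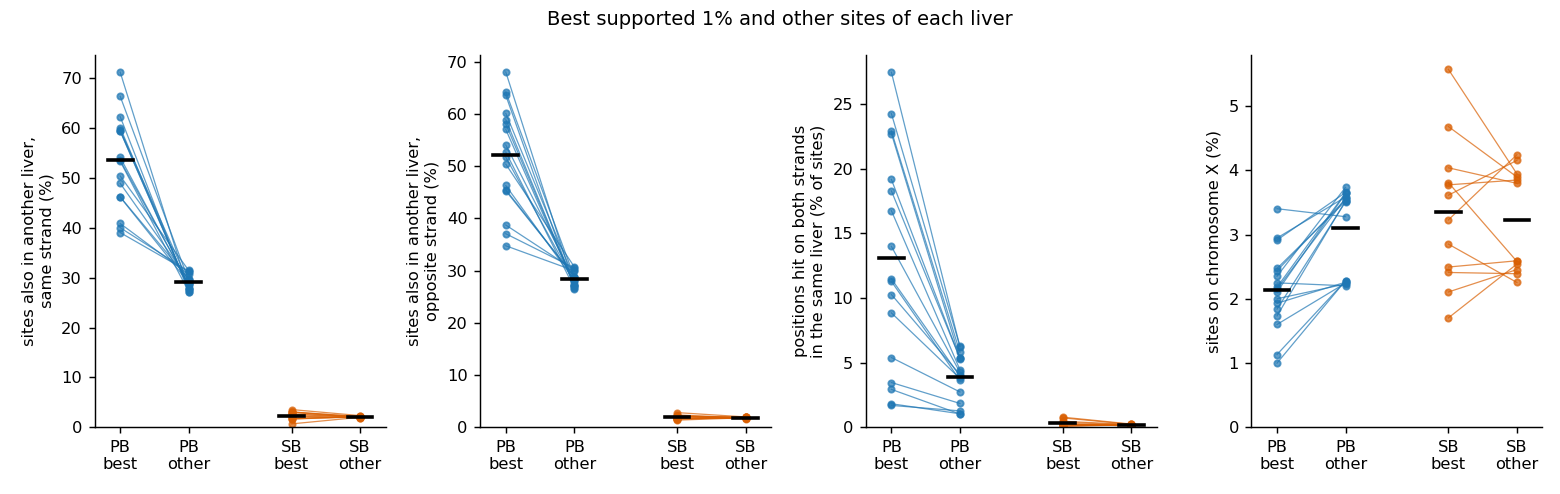
Shares of sites (percent) in the best supported 1% (left of each pair) and in the other sites of the same liver (right), 1 line per liver, with means as black bars, for 17 PB (blue) and 12 SB (orange) livers. In the first 3 panels the best supported sites of every PB liver lie above its other sites, with means of 53.6%, 52.1% and 13.1% against 29.0%, 28.4% and 3.91%, while the SB shares of these panels stay under 4%.

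The PB share climbed with support over the whole range rather than only at the threshold. Recurrent sites made up 27.6% ± 1.6 of PB sites below the median of support, 29.4% ± 1.8 from the 50th to the 90th percentile, 35.1% ± 2.5 from the 90th to the 99th, 52.1% ± 9.1 from there to the top 0.1% and 66.5% ± 14.2 in the top 0.1% (SD, n = 17 livers). The SB shares in the same order were 2.12%, 2.05%, 2.14%, 2.20% and 3.85%, the last with an SD of 2.47. These classes are a description without a test.

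**Figure D3:**
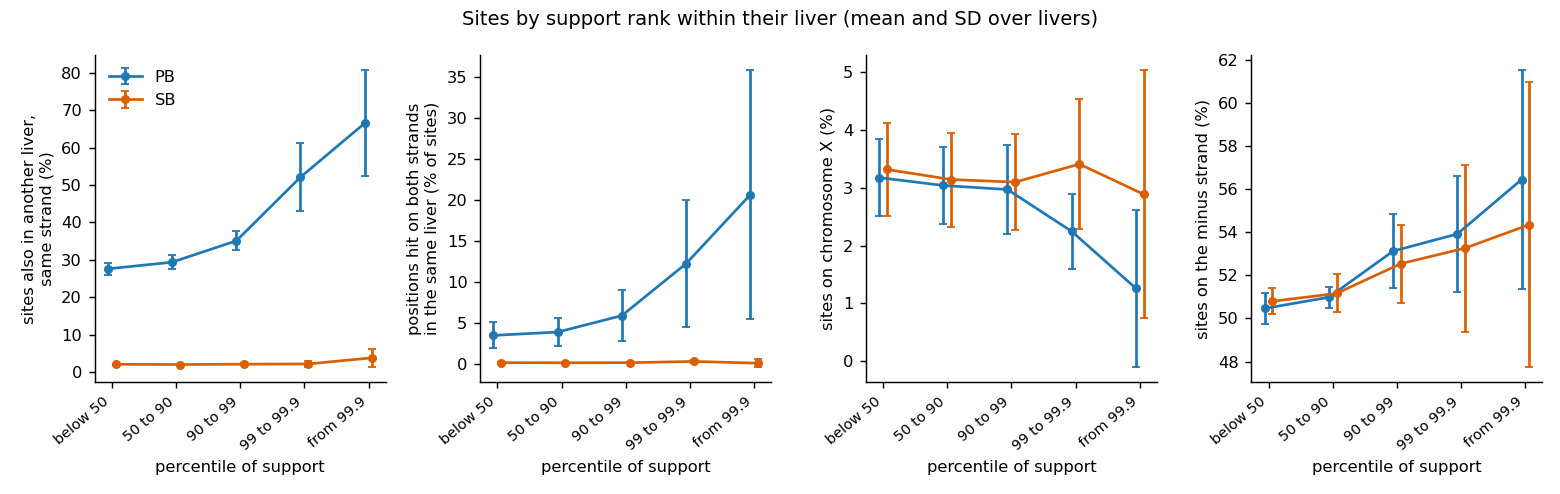
Shares of sites (percent, mean and SD over 17 PB and 12 SB livers) by the percentile of support of a site within its own liver. The PB recurrent share climbs from 27.6% to 66.5% and the PB share on chromosome X runs from 3.18% to 1.26% with wide SDs, while the SB recurrent share stays between 2.05% and 3.85%.

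Support itself was also higher at the same PB positions in other livers, although each of those livers chose its own sites by the same rule. Where a best supported PB site recurred, the records in other livers lay on average at the 57.1th ± 2.4 percentile of support of those livers, against the 52.6th ± 0.2 for recurrent other sites (SD, n = 17; higher in 15 of 17 livers, both exceptions in livers 13 to 17, exact sign-flip permutation test, adjusted p = 0.00023). Of 27571 such records, 8.21% were themselves among the best supported 1% of their liver, against 3.32% of the 763315 records matched by other sites. At the same time 36.7% of the 27571 lay below the median of their liver, against 44.8% for other sites. The 2264 records that were best supported in both livers are the pairs of the next paragraph, entered from each liver. Each coinciding pair of records enters from both livers, so the livers are not independent and the p-values of this measure may be too small. The SB ranks were 52.4 ± 7.3 and 49.5 ± 0.6 (SD, n = 12; exact sign-flip permutation test, adjusted p = 0.25), resting on 322 records for the best supported sites.

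The same PB position and strand was best supported in both livers of a pair 1132 times. The product of the 2 livers' shares of best supported sites, applied to the 395443 coinciding records of liver pairs, is 41.0, so the number was 27.6 times that product, and between 5.09 and 39.0 times it in single livers. In SB the number was 11 against a product of 1.14, or 9.62 times. At the 95th percentile the ratios were 6.81 in PB and 1.75 in SB. Of these 11, 6 came from 2 positions, and without them 5 remained. Among PB position and strand combinations, 602 reached the best supported sites of 2 or more livers and 14 those of 5 or more, and among SB ones 7 and 0 did. The choice of members fixes only the share per liver, and these counts carry no test. Coinciding records held more best supported sites than that share, which the product does not take into account. Of PB records matched by best supported sites 8.21% were best supported, against 3.32% of those matched by other sites. The SB values were 6.83% and 1.42%. The ratios to the product therefore restate recurrence in part and do not rank PB against SB.

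The PB position that was best supported in most livers lay on chromosome 1 from 88213525 to 88213528. It was listed in 16 of 17 livers by 27 records, 12 on the plus and 15 on the minus strand, and was best supported in 11 livers, with 9 plus-strand and 6 minus-strand records among the best. Its support ran from 9 to 536 (median 164), or from 0.529 to 9.85 times the median of the liver (median 3.18 times). The next, on chromosome 5 from 87684108 to 87684111, was best supported in 9 of the 16 livers that listed it, with a support from 35 to 319 (median 111) in 25 records. The third, on chromosome 13 from 12478522 to 12478525, was best supported in 8 of 16 livers, with a support from 14 to 290 (median 127) in 24 records. All 3 positions carried best supported records on both strands.

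The recurring SB positions looked different. The position on chromosome 3 from 83970636 to 83970637 was best supported in SB livers 2, 9 and 11, with a support of 257, 350 and 155, while livers 7, 10, 3 and 8 listed it with 78, 13, 8 and 8. The position on chromosome 10 from 105840578 to 105840579 was best supported in livers 7, 11 and 9 (305, 185 and 125) and listed in livers 5 and 8 with 8 and 6. The position on chromosome 8 from 7992669 to 7992670 was best supported in livers 7 and 11 (268 and 208) and listed in 4 further livers with 6 to 109. All records of each of these 3 positions lay on 1 strand.

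Best supported PB sites also more often had both orientations in the same liver. A record on the opposite strand of the same position accompanied 13.1% ± 8.4 of best supported PB sites and 3.91% ± 1.77 of other PB sites (SD, n = 17). The best supported share was higher in 17 of 17 livers and ran from 1.70% to 27.5%, against 1.04% to 6.28% for other sites (exact sign-flip permutation test, adjusted p = 7.63e-05). Livers 13 to 17 lay at 1.70% to 5.41% and livers 1 to 12 at 8.86% to 27.5%. In SB the shares were 0.327% ± 0.232 and 0.196% ± 0.046 (SD, n = 12), which did not pass (exact sign-flip permutation test, adjusted p = 0.089). The gap was 9.07 percentage points larger in PB than in SB (permutation test, adjusted p = 0.00023). As a ratio of means, best supported over other, it was 3.35 in PB and 1.67 in SB, which was not tested. Positions listed in several livers of a vector system, on either strand, are called shared. With shared positions left out and the best supported sites chosen anew, the PB shares were 0.912% and 0.742% (adjusted p = 0.15).

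Gathering in windows was measured by the share of all pairs of autosomal sites of a liver that fall in the same window, which does not depend on the number of sites. Over 1 Mb windows, 0.0688% of pairs of best supported PB sites shared a window, against 0.0592% of pairs of other PB sites. The mean log2 ratio was 0.19 ± 0.29 (SD, n = 17), higher in 13 of 17 livers (exact sign-flip permutation test, adjusted p = 0.029). All 4 exceptions were in livers 13 to 17, which averaged -0.13 ± 0.30 (SD, n = 5), whereas livers 1 to 12 averaged 0.33 ± 0.15 and were higher in 12 of 12. Over 100 kb windows the log2 ratio was 0.60 ± 0.54 over 16 livers, positive in 14 (exact sign-flip permutation test, adjusted p = 0.0019). Livers 1 to 12 averaged 0.72 ± 0.35 and were higher in 12 of 12, and livers 14 to 17 averaged 0.24 ± 0.90 with 2 higher and 2 lower. PB liver 13 had no pair of best supported sites in a 100 kb window and has no log ratio. As a difference of shares over all 17 livers, 0.0141% against 0.00932% of pairs, the 100 kb result also passed (exact sign-flip permutation test, adjusted p = 0.014).

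SB showed no such gathering that passed. The SB log2 ratios were 0.04 ± 0.16 over 1 Mb and 0.05 ± 0.38 over 100 kb (SD, n = 12; exact sign-flip permutation tests, adjusted p = 0.48 and 0.67). Over 1 Mb, SB livers 1 to 6 averaged -0.07 ± 0.10 with 2 of 6 higher. Those of livers 7 to 12 averaged 0.15 ± 0.14 with 5 of 6 higher, and this split was not tested. PB and SB differed over 100 kb by 0.55 on the log2 scale (permutation test, adjusted p = 0.0098) and did not pass over 1 Mb (difference 0.16, adjusted p = 0.14), except in livers 1 to 12 alone, where that difference was 0.29 (adjusted p = 0.00047). With shared positions left out, which leaves 61.0% of PB and 96.1% of SB sites on average, the PB log2 ratios were 0.06 over 1 Mb (16 livers with a ratio, exact adjusted p = 0.66) and 0.39 over 100 kb (15 livers, exact adjusted p = 0.051).

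**Figure D4:**
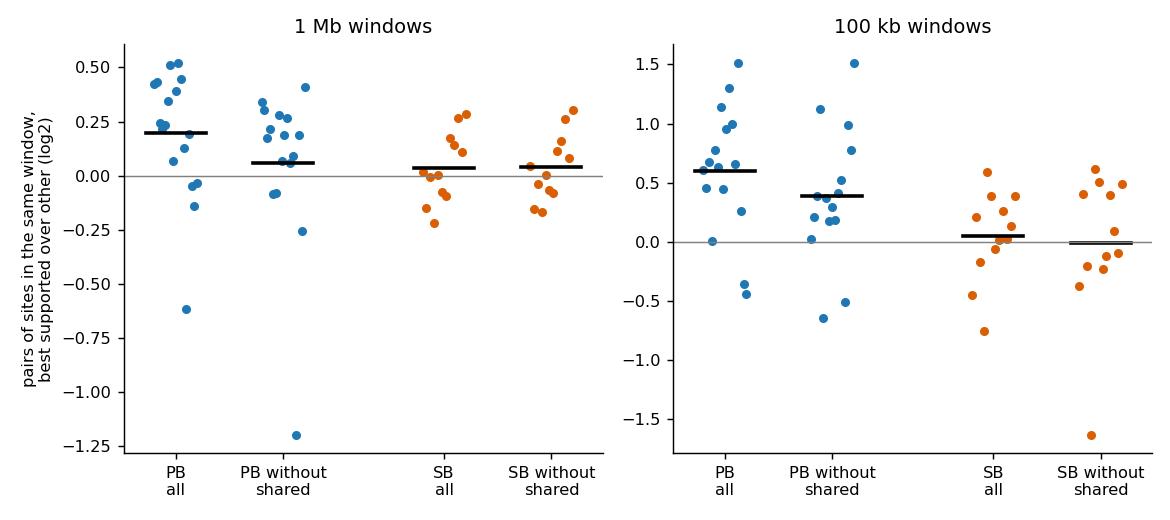
Log2 ratio of the share of site pairs in the same window, best supported over other sites of the same liver, for 1 Mb (left) and 100 kb (right) windows, with all sites and with shared positions left out. Points are livers with a ratio, PB blue and SB orange, and bars are means: 0.19 and 0.06 for PB and 0.04 and 0.04 for SB at 1 Mb.

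Best supported PB sites of different livers also fell in the same windows more often than other sites did. Pairs of best supported PB sites from 2 different livers shared a 100 kb window 1.93 times as often as pairs of other sites, close to the 1.78 times of pairs within a liver (all pairs pooled, with no test). Over 1 Mb the ratios were 1.28 between livers and 1.27 within them. In SB all 4 ratios lay between 1.02 and 1.06. Pairs at the identical position count as pairs in the same window, so the ratios between livers partly restate the recurrence above. No such ratio with shared positions left out is given here. Best supported PB sites also lay where other livers had more insertions: the mean density of their 1 Mb windows in the other PB livers was 2.53 ± 0.05 on the log2 scale of sites per 10000, against 2.38 ± 0.02 for other sites (SD, n = 17; higher in 17 of 17 livers, exact sign-flip permutation test, adjusted p = 7.63e-05). The SB values were 2.25 ± 0.04 and 2.23 ± 0.03 (SD, n = 12; difference 0.02, higher in 10 of 12, exact sign-flip permutation test, adjusted p = 0.068). The PB difference of 0.15 was larger than the SB one by 0.13 (permutation test, adjusted p = 3.33e-05). With shared positions left out and sites chosen anew, the PB difference was smaller, 0.051, and still passed (exact sign-flip permutation test, adjusted p = 0.00053). The SB difference was then 0.018 and passed the same test (adjusted p = 0.026).

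Single windows were tested for more or fewer best supported sites than their other sites give, in a quasi-binomial fit with the liver as block over windows with at least 200 sites. Of 1963 PB windows of 1 Mb, 4 held more (0.204%) and 0 held fewer (0%) at an adjusted p under 0.05, with 230 at an unadjusted p under 0.05. Of 2060 SB windows none passed in either direction (0%), with 133 at an unadjusted p under 0.05, and an exact binomial test of the sums over livers called 0 as well. The median tested window held 5 best supported PB sites or 4 SB sites, so small differences were not detectable at this depth.

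The window with the lowest p and the most best supported sites was on chromosome 1 from 88 to 89 Mb. It held 43 best supported PB sites in 13 of 17 livers, between 0 and 7 per liver, where the livers' shares give 13.9 of its 1321 sites (log2 ratio 1.66, SE 0.23, quasi-binomial adjusted p = 1.02e-06). Of the 43, 15 were records of the chromosome 1 position named above, and 28 lay in the 100 kb from 88200001 to 88300000. With shared positions removed and the best supported sites chosen anew, 8 were counted against 5.14 (log2 ratio 0.65, quasi-binomial adjusted p = 0.92). These 8 need not be among the 43.

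Of the other windows that passed, those on chromosomes 3 and 6 held many records of 1 position, and that on chromosome 11 did not. On chromosome 3 from 34 to 35 Mb there were 16 best supported sites against 4.72 (log2 ratio 1.80, SE 0.37, quasi-binomial adjusted p = 0.033), of which 9 were records of 1 position. On chromosome 6 from 71 to 72 Mb there were 31 against 13.3 (log2 ratio 1.25, SE 0.26, adjusted p = 0.033), 13 of them at 1 position. On chromosome 11 from 109 to 110 Mb, in contrast, the 26 sites against 10.8 (log2 ratio 1.28, SE 0.29, adjusted p = 0.0496) lay at 25 positions. With shared positions left out and sites chosen anew, the log2 ratios were 1.25, 0.26 and 1.18 in the same order. None of the 4 windows then passed (quasi-binomial adjusted p from 0.61 to 0.99). That removal also lowers the number of sites per window. With sites chosen at the 95th percentile the chromosome 1 window passed (log2 ratio 0.80, quasi-binomial adjusted p = 0.000286), and those on chromosomes 3, 6 and 11 did not (adjusted p = 0.17, 0.175 and 0.0773).

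The windows with most best supported PB sites after chromosome 1 were on chromosome 5 from 87 to 88 Mb, with 39 against 21.7, and on chromosome 5 from 92 to 93 Mb, with 34 against 17.6, and neither passed (quasi-binomial adjusted p = 0.095 and 0.088). The first holds the recurring chromosome 5 position, which gave 10 of the 39. The SB windows with most were on chromosome 11 from 3 to 4 Mb (17 against 13.9), chromosome 5 from 8 to 9 Mb (15 against 5.10) and chromosome 19 from 38 to 39 Mb (15 against 7.91). None of these passed (quasi-binomial adjusted p = 0.94, 0.27 and 0.7), and in each every best supported site had a position of its own.

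**Figure D5:**
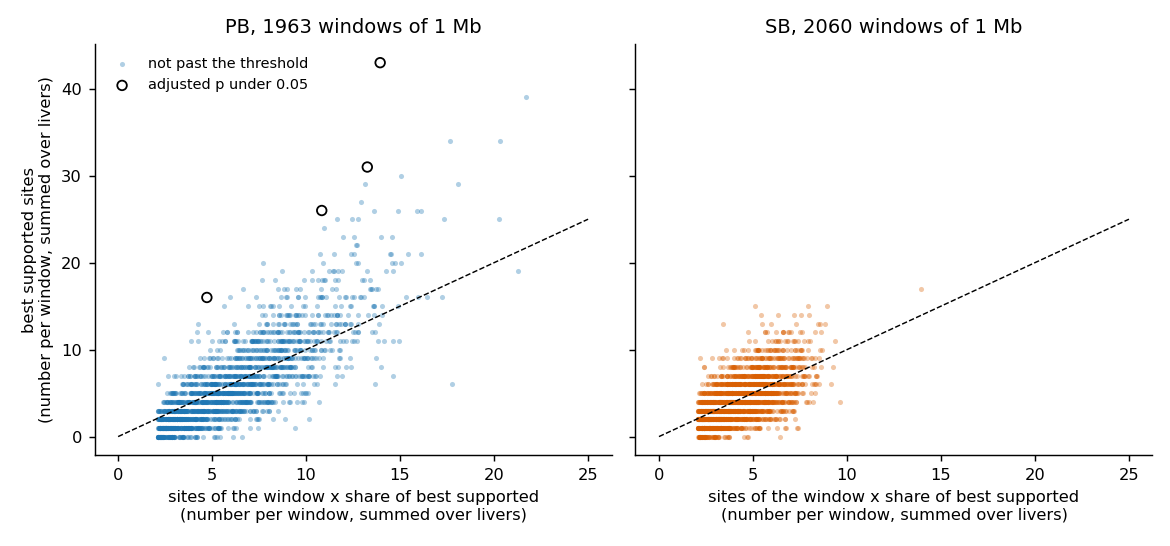
Best supported sites per 1 Mb window (summed over livers) against the number that the livers' shares of best supported sites give for the window's sites, for PB (left) and SB (right). Each point is a window, the dashed line marks equality and open circles mark the 4 PB windows past the threshold, of which the highest holds 43 against 13.9.

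Narrower windows of 100 kb with at least 50 sites, tested after the 1 Mb result was seen, gave 20 of 7860 PB windows with more best supported sites (0.254%) and 0 with fewer (0%). In SB 1 of 7095 passed (0.0141%), on chromosome 10 from 105800001 to 105900000, with 8 best supported sites in 4 livers against 0.614 (log2 ratio 3.90, SE 0.55, quasi-binomial adjusted p = 0.0016). It contains the recurring SB position of chromosome 10. The PB window with the largest number was the 100 kb on chromosome 1 named above, with 28 against 3.91 (log2 ratio 2.95, SE 0.29, quasi-binomial adjusted p = 2.6e-11). Next by p was chromosome 3 from 34500001 to 34600000, with 11 against 1.00. No 100 kb window passed in PB (0 of 4270) or SB (0 of 6514) with shared positions left out, with 102 and 144 at an unadjusted p under 0.05. The SB window and 9 of the 20 PB windows then lay under the minimum of sites and were not tested again, and the other 11 PB windows were tested. For these 11 the livers' shares gave only 0.569 to 1.30 best supported sites per window. The median tested window then held 1 best supported site in PB and 0 in SB, so differences were hardly detectable at this depth.

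Best supported PB sites leaned to the minus strand. It held 54.2% ± 2.6 of best supported PB sites and 50.9% ± 0.4 of other PB sites (SD, n = 17; higher in 16 of 17 livers, exact sign-flip permutation test, adjusted p = 0.00012). The best supported shares ran from 50.7% to 61.2% and the other shares from 50.3% to 51.7%, so the ranges overlap only at the low end. In SB the shares were 53.4% ± 4.0 and 51.1% ± 0.4 (SD, n = 12; higher in 8 of 12, exact sign-flip permutation test, adjusted p = 0.093). The test of the difference in lean between the vectors did not pass (PB minus SB 0.989 percentage points, permutation test, adjusted p = 0.45). The PB difference with shared positions left out was 1.91 percentage points and no longer passed (adjusted p = 0.11).

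Chromosome X held fewer of the best supported PB sites. Its share was 2.15% ± 0.61 of best supported and 3.10% ± 0.65 of other PB sites on chromosomes 1 to 19 and X (SD, n = 17; lower in 15 of 17 livers, exact sign-flip permutation test, adjusted p = 0.00017). The X share of other sites falls into 2 ranges by liver number, 2.20% to 2.29% in PB livers 1 to 6 and 3.51% to 3.66% in livers 7 to 12. Best supported sites lay at 1.00% to 2.25% and at 1.84% to 2.92% in the same livers, lower in 5 of 6 and 6 of 6. Other sites of PB livers 13 to 17 lay at 3.28% to 3.74%. In SB the shares were 3.36% ± 1.12 and 3.23% ± 0.80 (SD, n = 12; higher in 6 of 12, exact sign-flip permutation test, adjusted p = 0.61), and the PB difference was lower than the SB one by 1.09 percentage points (permutation test, adjusted p = 0.00046). With shared positions left out the PB shares were 3.98% and 4.10% (adjusted p = 0.59). No best supported site lay on the mitochondrial genome, which held 16 other PB and 14 other SB records, and 1 PB and 2 SB best supported sites lay on chromosome Y.

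Close neighbours were rarer around best supported sites in both systems. Another position of the same liver lay within 10 bp of 1.45% ± 0.40 of best supported PB sites and 3.16% ± 0.57 of other PB sites (SD, n = 17; lower in 16 of 17 livers, exact sign-flip permutation test, adjusted p = 0.00015). In SB the shares were 1.09% ± 0.50 and 3.22% ± 0.57 (SD, n = 12; lower in 12 of 12, exact sign-flip permutation test, adjusted p = 0.0011). Of sites below the median of support, 5.45% in PB and 5.35% in SB had such a neighbour. Against sites from the 50th to the 90th percentile only, the PB difference turned to 0.569 percentage points higher (adjusted p = 0.00012) and the SB difference was -0.0286 (adjusted p = 0.83).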

How the data were processed

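Per the labels' protocols, DNA from 30 livers was fragmented, ligated to a linker and amplified in nested PCRs before sequencing. Per the submitters' processing notes, Cutadapt and BWA were used (versions not stated) with the build GRCm39. The authors deposited 1 table per liver with chromosome, position, strand and a whole number per site of 3 or more. No label says what it counts, and it is called support. If it counts PCR reads, these carry no molecular identifiers, so intervals cover counting error only. A PB record is 4 bp wide and an SB record 2 bp.

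The 10 measures of best supported and other sites were compared within each liver, and over livers by two-sided exact sign-flip permutation tests, Benjamini-Hochberg adjusted over 20. Each liver was 1 replicate. PB and SB differences were compared by permutation tests (100000 resamples, adjusted over 10). Window counts of sites were fitted by a quasi-binomial model with the liver as block and 1 dispersion for all windows, in place of the planned count tests, which were not run. A pseudocount of 0.1 was added to densities. Python 3.11.15, numpy 2.4.6 and scipy 1.17.1 were used, and the window fit and the measures were tested on simulated data. Members, lists and tests were chosen with earlier results of these data known. Windows, positions and sites were named by rule: up to 5 called windows per direction by size of difference, the 3 windows with most best supported sites, the 3 sites with most support over the median and the 3 positions best supported in most livers, for PB and SB. No result rests on random draws of sites. The 2 merged tables were not used.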

Additional observations from a re-analysis of the deposited data

Results flagged for a closer look

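A total of 6 measures differed between PB and SB in how best supported sites stand to the other sites of the same liver, each by a permutation test of the difference itself. The gap (best supported minus other, PB minus SB) was 24.3 percentage points for recurrence on the same strand, 23.7 for recurrence on the opposite strand (adjusted p = 3.33e-05 each) and 9.07 for both strands in 1 liver. It was 0.55 on the log2 scale for gathering in 100 kb windows, -1.09 percentage points for the X share and 0.13 on the log2 scale for the density of the surrounding window in other livers. For the first 3, PB livers 17 of 17 were higher, against 8, 7 and 9 of 12 SB livers. These 3 gaps are in percentage points, which a larger share of other sites can widen. That share was 29.0%, 28.4% and 3.91% in PB and 2.10%, 1.86% and 0.196% in SB. The untested ratios of best supported over other means were 1.84, 1.84 and 3.35 in PB and 1.13, 1.05 and 1.67 in SB.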

How the results depend on the processing

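Alternatives were set with earlier results known, and those for 100 kb windows, the binomial test, the shares of pairs, the strand without doubly hit positions and the sites best supported in 2 livers were added after the data were seen. Apart from the values given here, the measures and counts of windows kept direction and side of the threshold (142 comparisons of a setting with the reported value). Of the same comparisons for single named windows, 24 kept both, 7 no longer passed, 1 newly passed and 1 turned. At the 95th percentile the SB differences were 1.65 for the minus strand, 0.159 for recurrence and 0.0185 for density, now past the threshold, and -0.0350 for opposite-strand recurrence and -0.0825 for the X share, both turned. PB windows were then 9 with more and 3 with fewer, 3 of the 4 reported PB windows lost their call, and the ratios for 2 livers were 6.81 in PB and 1.75 in SB. With the top 0.1% only, neighbours (PB -0.610, SB -1.41) and PB 1 Mb gathering (0.59, 11 livers with a ratio) no longer passed, and SB both strands (-0.0621) and X share (-0.340) turned. Against the 50th to 90th percentile, neighbours were 0.569 in PB and -0.0286 in SB. Without positions in more than 1 liver, PB differences were 1.91 (minus strand), 0.170 (both strands) and -0.119 (X share). For 1 Mb and 100 kb gathering they were 0.0596 and 0.39. None of these passed the threshold, while the PB density difference of 0.051 still did. There SB density was 0.0182 and passed, SB 100 kb gathering was -0.0134, the SB window on chromosome 11 from 3 Mb was -0.0672, and 0 PB windows passed. SB gathering was -0.188 with shifted 100 kb windows, -0.0128 over 10 Mb and 0.595 over 10 kb (11 livers), which passed. PB windows were 2 with more and 2 with fewer over 10 Mb, and 7 with more in livers 1 to 12. Windows of 100 kb gave 20 in PB and 1 in SB. The cause was not tested.

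Liver numbers were not taken to pair PB with SB livers: 0 of 12 pairs correlated above 0.1 over windows. With the replicate block the PB minus SB difference was 0.700 for neighbours and 0.293 for 1 Mb gathering, both then past the threshold, with the same values in livers 1 to 12 without the block, and it changed no other call. The 2 planned count-model scalings were not run, and merging within 10 bp leaves no value for neighbours or both strands. Recurrence is seen only at a support of at least 3.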

Other observations

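SB liver 13, with 4893 sites, was too small for the rule. Its best supported 49 sites had a support of 462 to 787 and held 5.40% of its support. Of them 2 (4.08%, 95% Wilson interval 1.13% to 13.7%) recurred in SB livers 1 to 12, against 2.42% of its other sites, and 44.9% (31.9% to 58.7%) lay on the minus strand, against 53.9%.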
